A study of Mus musculus with 6 samples.

Results

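The genes described here build and police secreted proteins in the endoplasmic reticulum (ER). They are 35 genes chosen by symbol, in 4 roles: 3 genes of stress sensors and their transcription factors, 13 chaperones and co-chaperones, 9 genes of disulfide bond formation, and 10 genes of ER-associated degradation (ERAD). The set was chosen with earlier results of these data known, so its counts beside those of all genes are not independent of the data. Of the 35, 33 had a probe set of their own among the 30702 genes measured, and all 33 passed the filter on low values. Manf and Pdia4 were not analysed here, since their probe sets list a further gene.

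New secretory proteins enter the ER unfolded, are held by chaperones, gain disulfide bonds from the protein disulfide isomerases, and leave once folded. Proteins that fail to fold are drawn back into the cytosol by the ERAD machinery and destroyed. When unfolded protein builds up, the unfolded protein response, run by the sensors IRE1, PERK and ATF6, raises the genes of folding and degradation. Stromal cells of bone marrow secrete collagen and other matrix proteins and so depend on this machinery.

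The aged group was 3 arrays of bone marrow stromal cells (BMSCs) from mice of 18 months, and the young group 3 arrays from mice of 3 months. Crushed femurs were treated with collagenase, cells with Sca-1 and CD29 but without CD45 and CD11b were sorted, and these were grown past the first passage before RNA was taken. The strain and sex are not given in the sources used here, nor is any treatment other than age. The labels name biological replicates without saying whether each array is a separate animal, so the p-values rest on the spread among 3 arrays of an age, which may be technical, and batches of culture or hybridisation cannot be told apart from age.

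Values are deposited log2 expression values, 1 per probe set and array. Array medians over transcript clusters lay between 5.39 and 5.44. Pearson's r across the 20187 genes tested was 0.995 to 0.999 within an age and 0.976 to 0.978 between ages (genes are not independent replicates). The 95th percentile of the negative controls was 7.61, and no fold is given where the mean of either age was at or below it. The median positive control was lower in aged arrays by 0.15 (aged minus young, -0.15). Calls were therefore also made after centring each array on the mean of its positive controls, which raised each difference by 0.11. The median negative control was lower in aged arrays as well, at an aged minus young difference of -0.26, with array medians of 4.62 to 4.67 in aged and 4.93 to 5.06 in young arrays, and 7.61 was used as 1 limit for both ages. Itgb1, which encodes CD29, averaged 11.76 in aged and 11.86 in young arrays, while Ptprc (CD45) and Itgam (CD11b) lay within the range of the negative controls in both ages. Ly6a (Sca-1) was not analysed here.

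Most of the ER folding and degradation genes were lower in aged cells. By limma, with Benjamini-Hochberg adjustment over all 20187 genes tested and a threshold of 0.05, 28 of the 33 were lower, 3 were higher (Sil1, Edem2 and Os9), and 2 did not pass (P4hb and Derl3). Over all genes tested, 22.1% were called lower and 18.4% higher, 40.6% in all. The median difference of the 33 genes was -0.57 on the log2 scale, against 0.01 over all genes tested. After centring on the positive controls, 28 were lower and 4 higher, while the calls over all genes shifted to 2672 lower and 6617 higher, against 4471 and 3724 before it.

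The mean log2 value of the 33 genes was 10.25, 10.25 and 10.26 on the aged arrays, against 10.84, 10.83 and 10.83 on the young arrays. The groups were thus apart by far more than their spread, with an SD of 0.0058 in aged and 0.0064 in young arrays (n = 3 each). Array means over all genes tested did not overlap either, at 7.83 to 7.84 in aged and 7.80 to 7.82 in young arrays. Their SD was 0.0030 in aged and 0.010 in young arrays. The difference of these means was -0.58 for the 33 genes and 0.03 over all genes tested. In 29 genes every aged array lay below every young array, and in 3 every aged array lay above; over all genes tested these shares were 26.9% and 24.4%. The arrays of the 2 ages overlapped only for Derl3. The fold of the 28 lower genes reached 2.85, and 5 of them (Sdf2l1, Ero1b, Hyou1, Dnajc3 and Creld2) were lower by at least 1 on the log2 scale, a size that 0.208% of all genes tested reached. A reduction of at least 0.5 was seen in 19 genes of the set and in 2.93% of all genes tested. Tested by limma against a difference of 0.3 rather than 0, 22 genes of the set were lower and 0 higher (0 at an unadjusted p under 0.05), against 4.04% and 5.79% of all genes tested.

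**Figure D1:**
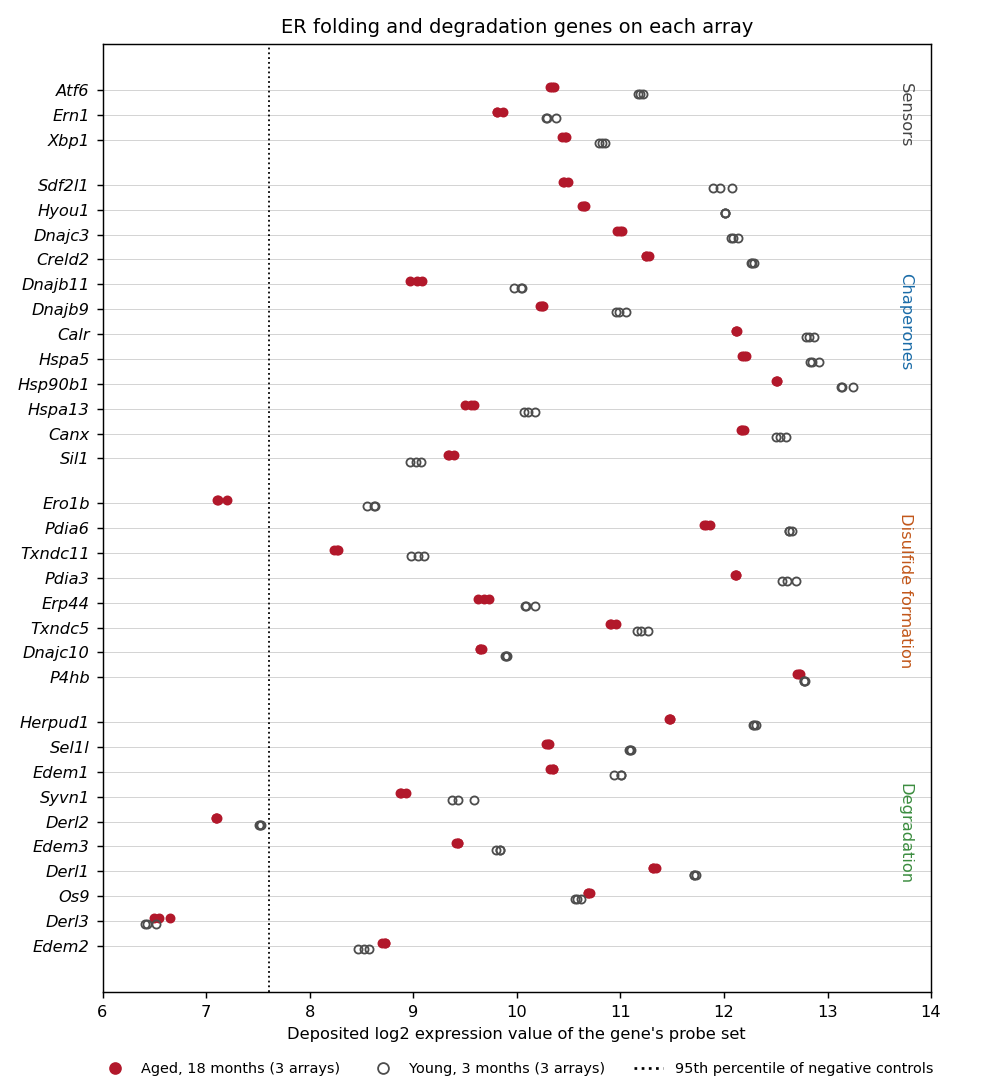
Deposited log2 value of each of the 33 genes (horizontal axis) on each array, with aged arrays as filled points above young arrays as open points, grouped by role. Aged points lie left of all young points in 29 genes, and the dotted line marks the 95th percentile of the negative controls, 7.61.

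In bulk RNA from cultured cells, fewer cells of a type and less RNA per cell cannot be told apart. Plasma cells, which hold very large amounts of ER, were checked by 11 measured B and plasma cell genes, of which 10 lay within the negative control range, including Jchain and Mzb1. Of all transcript clusters, 70% averaged under 6.53 over the 6 arrays, below the limit of that range, 7.61. The mean log2 value of the 11 B and plasma cell genes was 5.71 to 5.73 on aged and 5.57 to 5.67 on young arrays. Of these genes Sdc1 alone passed the test, with a difference of 0.52. Of 10 stromal markers, 4 lay within the negative control range in both ages, and 9 were tested. In aged cells 6 were higher and 1 lower, against 18.4% and 22.1% of all genes tested. Array means of the 10 were 9.45 to 9.46 in aged and 8.98 to 9.02 in young arrays. Col1a1, the main collagen chain of bone matrix, averaged 13.22 in aged and 12.43 in young arrays. The part of these stromal shifts in the ER results was not tested.

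Defining markers of other cell types mostly lay low. Within the negative control range in both ages were 9 of 10 macrophage and monocyte genes, 9 of 9 neutrophil genes, 7 of 8 osteoclast genes, 8 of 8 endothelial genes and 3 of 4 erythroid genes. Lying within it does not show that a cell type was absent, since 70% of all transcript clusters averaged under 6.53. Array means of macrophage genes were 6.39 to 6.42 in aged and 6.10 to 6.11 in young arrays. Those of neutrophil genes were 5.24 to 5.33 in aged and 4.97 to 5.17 in young arrays, and those of osteoclast genes 6.38 to 6.41 in aged and 6.18 to 6.25 in young arrays. Endothelial genes had array means of 5.82 to 5.83 in aged and 5.73 to 5.82 in young arrays, and erythroid genes 6.55 to 6.57 in aged and 6.69 to 6.82 in young arrays. The genes of these lists above that range were the monocyte gene Ly6c2, at 12.42 in aged and 9.91 in young arrays, the osteoclast protease gene Ctsk, at 10.04 in aged and 9.07 in young arrays, and the transferrin receptor gene Tfrc, at 8.49 in aged and 9.28 in young arrays. Within that range, the neutrophil gene Ly6g had a difference of 0.90 and the endothelial gene Kdr one of 0.69. The array means include these single genes, so a shift of a mean is not a shift of its whole list. Of pericyte and smooth muscle genes, 5 of 9 lay within that range. Of the 8 tested, 4 were higher and 2 lower, against 18.4% and 22.1% of all genes tested. Their array means were 8.08 to 8.09 in aged and 7.91 to 7.95 in young arrays. Their part in the ER results was not tested.

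Some of these genes carry, just before their start, the ER stress response element (ERSE), the site through which ATF6, together with NF-Y, switches on ER chaperones. RefSeq promoter windows of assembly GRCm38.p6, from 250 bases before to 50 after the transcript start, matched 29 of the 35 genes by symbol; Atf6, Hyou1, Manf, Sil1, Hspa13 and Derl1 were not searched. The ERSE was searched on both strands as CCAAT and CCACG with any 9 bases between them. It was found in 37 of 27025 genes with a window (0.137%) and in 10 of the 29 ER genes (34.5%). Since the element is known as a site of ER chaperone genes, these shares are a description and not an independent comparison. The elements are printed below on the strand that reads CCAAT first, with the fixed letters in capitals, so that the 9-base spacers can be compared.
Ero1b: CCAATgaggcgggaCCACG
Dnajc3: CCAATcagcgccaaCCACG
Creld2: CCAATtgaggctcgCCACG
Pdia6: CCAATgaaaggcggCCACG
Calr: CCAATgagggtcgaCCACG
Hspa5: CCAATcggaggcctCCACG
Hsp90b1: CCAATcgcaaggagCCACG
Hsp90b1: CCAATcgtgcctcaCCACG
Syvn1: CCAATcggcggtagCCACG
Canx: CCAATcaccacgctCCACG
Derl3: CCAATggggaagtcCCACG

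The fixed ends are set by the search and only the spacers vary. Hspa5 carries its match at chr2:34772025-34772043 on the plus strand, bases -65 to -47 from the start. Hsp90b1 carries a pair, at chr10:86705638-86705656 on the minus strand and chr10:86705533-86705551 on the plus strand. Of the other matches, those of Ero1b (chr13:12565682-12565700), Creld2 (chr15:88819520-88819538), Canx (chr11:50325800-50325818) and Derl3 (chr10:75893242-75893260) lie on the minus strand. Those of Dnajc3 (chr14:118937827-118937845), Pdia6 (chr12:17266491-17266509), Calr (chr8:84847075-84847093) and Syvn1 (chr19:6046532-6046550) lie on the plus strand.

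The shorter element ERSE-II, searched on both strands as ATTGG and CCACG with any 1 base between them, was in 12 genes with a window (0.0444%), among them Herpud1 and Dnajb11. The XBP1 site known as the UPRE, searched on both strands as TGACGTGG, was in 193 genes (0.714%), among them Txndc11 and Txndc5. These matches are shown for comparison with the longer element, again with fixed letters in capitals. No match of one motif overlapped a match of another in the ER genes.
Herpud1: ATTGGgCCACG
Dnajb11: ATTGGcCCACG
Txndc11: TGACGTGG
Txndc5: TGACGTGG

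The match in Herpud1 lies at chr8:94386377-94386387 and that in Dnajb11, after the transcript start, at chr16:22857852-22857862, both on the plus strand. The UPRE matches lie at chr16:11134627-11134634 in Txndc11 and chr13:38528045-38528052 in Txndc5, both on the minus strand.

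The whole upstream stretches of 4 genes show where the element sits: Hspa5 and Hsp90b1 as the best studied targets, Ero1b as the lowest gene with a match, and Derl3 as the gene with a match that did not pass the test. Each is the 250 bases before the start, read along the gene's own strand, with ERSE ends in capitals (CGTGG and ATTGG where the element is on the opposite strand). Hspa5 is at chr2:34771840-34772089 on the plus strand, Hsp90b1 at chr10:86705445-86705694 on the minus strand, Ero1b at chr13:12565633-12565882 on the plus strand and Derl3 at chr10:75893148-75893397 on the plus strand.
Hspa5: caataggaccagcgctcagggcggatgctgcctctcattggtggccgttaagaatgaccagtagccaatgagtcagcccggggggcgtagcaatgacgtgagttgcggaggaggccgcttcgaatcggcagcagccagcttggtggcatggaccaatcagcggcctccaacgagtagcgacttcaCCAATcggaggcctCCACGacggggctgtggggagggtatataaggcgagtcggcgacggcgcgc
Hsp90b1: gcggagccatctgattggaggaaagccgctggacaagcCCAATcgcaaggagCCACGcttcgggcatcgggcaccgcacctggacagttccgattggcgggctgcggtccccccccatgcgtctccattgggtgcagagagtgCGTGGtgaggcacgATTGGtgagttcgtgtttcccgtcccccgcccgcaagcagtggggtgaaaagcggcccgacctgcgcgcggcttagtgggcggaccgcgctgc
Ero1b: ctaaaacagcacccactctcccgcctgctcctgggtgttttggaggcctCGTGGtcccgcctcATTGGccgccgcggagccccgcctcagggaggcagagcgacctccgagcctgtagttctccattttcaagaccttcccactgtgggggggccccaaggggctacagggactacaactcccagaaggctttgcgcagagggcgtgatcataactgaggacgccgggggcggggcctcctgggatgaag
Derl3: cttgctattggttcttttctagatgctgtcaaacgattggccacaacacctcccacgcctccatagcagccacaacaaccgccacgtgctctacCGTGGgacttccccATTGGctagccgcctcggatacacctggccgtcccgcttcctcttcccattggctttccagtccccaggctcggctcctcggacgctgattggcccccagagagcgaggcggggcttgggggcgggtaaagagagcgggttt

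Within the set, most genes with the ERSE and most without it were lower in aged cells. Of the 10 measured ER genes with an ERSE, 9 were lower in aged cells, with a median difference of -0.69 and a range of -1.46 to 0.11. Of the 18 measured genes with a window but no match, 15 were lower, with a median of -0.46 and a range of -1.51 to 0.20. The gene of the set with the lowest difference, Sdf2l1, had no match, which says only that these letters are not in its window. Outside the set, 12 tested genes had an ERSE and 7 of them were lower, against 23.2% of the 12693 tested genes with a window. Of tested genes outside the set, 3 of 8 with an ERSE-II and 35 of 127 with a UPRE were lower.

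**Figure D2:**
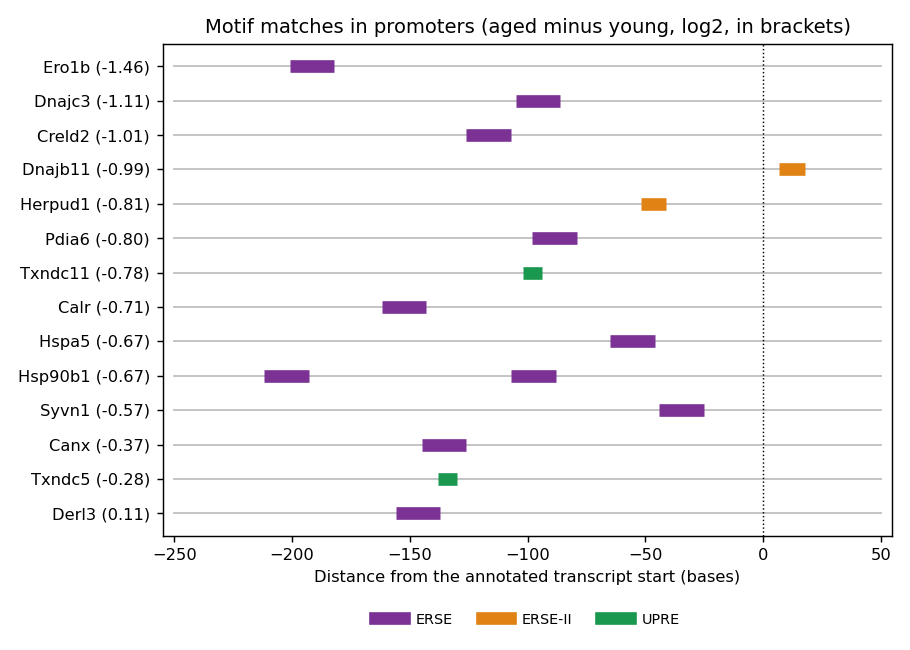
Position of each motif match (coloured block) in the promoter window of the 14 ER genes that hold one, in bases from the annotated start, with genes in order of their aged minus young difference (log2, in brackets). Matches lie upstream of the start in all but Dnajb11, and Ero1b is at the low end (-1.46) while Derl3 is at the high end (0.11).

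All 3 sensor genes were lower in aged cells. Atf6, whose product is cut on leaving the ER and becomes a transcription factor, read 10.36, 10.32 and 10.34 on the aged arrays, against 11.22, 11.17 and 11.19 on the young arrays. No aged array came near a young one. It was 1.81-fold lower (difference -0.86 ± 0.028, SE; limma adjusted p = 5.63e-08). Ern1, which encodes the sensor and RNase IRE1, read 9.81, 9.81 and 9.86 on the aged arrays, against 10.38, 10.29 and 10.28 on the young arrays, and was 1.40-fold lower. Xbp1, the transcription factor whose RNA IRE1 splices, read 10.43, 10.47 and 10.48 on the aged arrays, against 10.79, 10.82 and 10.85 on the young arrays. It had the smallest change of the 3, 1.28-fold lower, and 1 value per gene does not separate its spliced from its unspliced RNA.

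**Figure D3:**
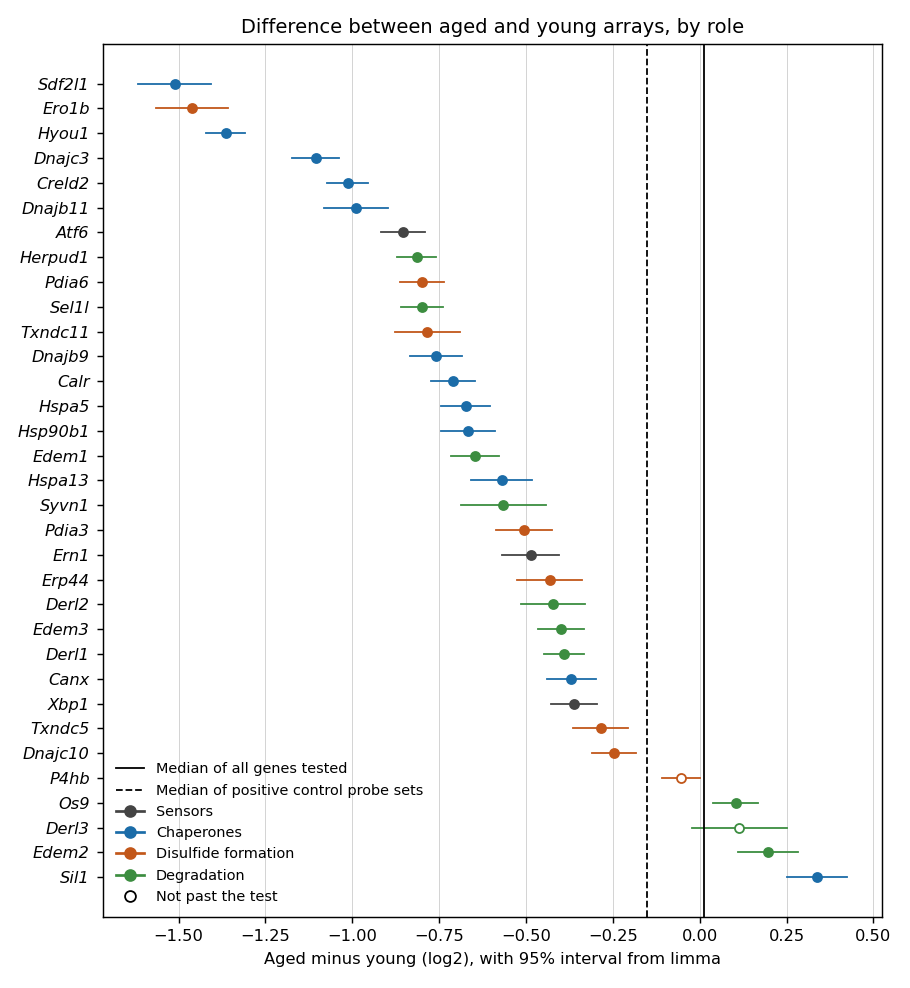
Aged minus young difference (log2, horizontal axis) of each of the 33 genes with its 95% interval from limma, coloured by role, with open points for genes that did not pass the test. Points run from Sdf2l1 at -1.51 to Sil1 at 0.34, with the solid line at the median of all genes tested (0.01) and the dashed line at the median of the positive controls (-0.15).

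Of 12 chaperones and co-chaperones tested, 11 were lower in aged cells and 1 was higher, with a median difference of -0.74. Sdf2l1, a partner of the BiP co-chaperones that slows protein aggregation, read 10.45, 10.50 and 10.46 on the aged arrays, against 12.08, 11.96 and 11.90 on the young arrays. The lowest young array stood 1.40 above the highest aged one. It was 2.85-fold lower (adjusted p = 4.01e-08, limma) and ranked 4 from the lowest difference of the 20187 genes. Hyou1, the large Hsp70 relative of the ER that exchanges nucleotide on BiP, read 10.63, 10.64 and 10.66 on the aged arrays, against 12.01, 12.01 and 12.01 on the young arrays. The arrays of each age were nearly identical, and the gene was 2.58-fold lower (difference -1.36 ± 0.025, SE; adjusted p = 2.97e-09, limma), at rank 11.

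BiP, the central chaperone that holds unfolded chains and restrains the stress sensors, is encoded by Hspa5. It read 12.21, 12.20 and 12.17 on the aged arrays, against 12.83, 12.85 and 12.92 on the young arrays, and was 1.59-fold lower (adjusted p = 5.08e-07, limma). Its rank from the lowest difference was 228, behind Sdf2l1 and Hyou1; differences of single genes were not tested against each other. The difference of Hsp90b1, the Hsp90 of the ER (GRP94), was almost the same as that of Hspa5: it read 12.51, 12.51 and 12.50 on the aged arrays, against 13.13, 13.14 and 13.25 on the young arrays, 1.59-fold lower. Both carry the ERSE sequences printed above.

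The 3 J-domain co-chaperones of this role, which hand clients to BiP and set off its ATPase, all fell. Dnajc3 (p58IPK) read 11.00, 10.97 and 11.01 on the aged arrays, against 12.07, 12.09 and 12.14 on the young arrays, and was 2.15-fold lower (adjusted p = 1.80e-08, limma). Dnajb11 (ERdj3), which stays bound to unfolded clients and can be secreted with them, read 9.09, 9.04 and 8.97 on the aged arrays, against 9.97, 10.04 and 10.05 on the young arrays, 1.99-fold lower. The ages of Dnajb11 did not overlap, at an SD of 0.059 in aged and 0.042 in young arrays. Dnajb9 (ERdj4), a repressor of IRE1, read 10.22, 10.24 and 10.25 on the aged arrays, against 10.95, 10.99 and 11.05 on the young arrays, 1.69-fold lower.

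Creld2, an ER stress-induced isomerase-like protein, read 11.25, 11.25 and 11.28 on the aged arrays, against 12.29, 12.27 and 12.26 on the young arrays, and was 2.02-fold lower (adjusted p = 1.44e-08, limma). The lectin chaperones of newly made glycoproteins also fell, with differences of -0.71 for the soluble Calr and -0.37 for the membrane-bound Canx. Calr (calreticulin) read 12.12, 12.11 and 12.13 on the aged arrays, against 12.80, 12.82 and 12.87 on the young arrays, 1.64-fold lower. Canx (calnexin) read 12.19, 12.17 and 12.16 on the aged arrays, against 12.50, 12.54 and 12.60 on the young arrays, 1.29-fold lower. Hspa13, an Hsp70 relative of microsomes, was 1.48-fold lower.

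Sil1 went the other way from Hyou1, although both are nucleotide exchange factors of BiP. Sil1 read 9.34, 9.34 and 9.40 on the aged arrays, against 9.07, 9.03 and 8.97 on the young arrays, so that every aged array was above every young one. It was 1.26-fold higher (difference 0.34 ± 0.038, SE; adjusted p = 0.000112, limma), the largest increase among the 33 genes. Antigenomic background probe sets, designed to have no target in the mouse genome, were higher in aged arrays by 0.0060 to 0.29, while the median negative control was lower there (-0.26). The differences of Edem2 and Os9 lie within the antigenomic range and that of Sil1 lies above it. Array medians of the antigenomic probe sets were 4.65 to 4.80, below the values of these 3 genes. The part of background in the 3 genes was not tested.

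Of 8 genes of disulfide bond formation tested, 7 were lower and 1, P4hb, did not pass, with a median difference of -0.47. Ero1b, an oxidase that recharges protein disulfide isomerases, had the largest difference of the 8. It read 7.20, 7.11 and 7.11 on the aged arrays, against 8.63, 8.62 and 8.55 on the young arrays (difference -1.46 ± 0.045, SE; adjusted p = 4.22e-08, limma). The aged values lie within the range of the negative controls, so no fold is given. The isomerase Pdia6, which also acts on the IRE1 sensor, read 11.83, 11.81 and 11.87 on the aged arrays, against 12.62, 12.62 and 12.66 on the young arrays, 1.74-fold lower. Pdia3 (ERp57), the isomerase that works with calnexin and calreticulin, read 12.11, 12.11 and 12.12 on the aged arrays, against 12.56, 12.60 and 12.69 on the young arrays, 1.42-fold lower.

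P4hb, the classic protein disulfide isomerase and a subunit of the collagen prolyl hydroxylase, was the gene that did not pass. It read 12.73, 12.71 and 12.73 on the aged arrays, against 12.78, 12.78 and 12.78 on the young arrays. Every aged array was below every young array, yet the difference was -0.05, with a 95% interval of -0.11 to 0.0011 and an adjusted p of 0.114 by limma. Centring on the positive controls, which raised each difference by 0.11, turned that of P4hb positive, and the gene still did not pass. Txndc11, a partner of the ERAD mannosidase-like proteins, read 8.28, 8.26 and 8.23 on the aged arrays, against 9.10, 9.05 and 8.97 on the young arrays, 1.72-fold lower. The other 3 genes had smaller reductions: Erp44, which retains oxidases in the ER, was 1.35-fold lower, the isomerase-like Txndc5 1.22-fold lower, and the reductase Dnajc10 (ERdj5) 1.19-fold lower.

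Of 10 ERAD genes tested, 7 were lower, 2 were higher and 1 did not pass, with a median difference of -0.41. Herpud1, a stress-induced scaffold of the HRD1 ubiquitin ligase complex, read 11.48, 11.47 and 11.48 on the aged arrays, against 12.31, 12.28 and 12.29 on the young arrays, and was 1.76-fold lower (adjusted p = 3.64e-08, limma). Sel1l, the adaptor of the ligase, read 10.30, 10.28 and 10.31 on the aged arrays, against 11.11, 11.10 and 11.08 on the young arrays, 1.74-fold lower. The ligase itself, Syvn1 (HRD1), read 8.87, 8.89 and 8.93 on the aged arrays, against 9.59, 9.43 and 9.37 on the young arrays. It was 1.48-fold lower, and its young SD, 0.11, was the highest of the 33 genes.

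The EDEM lectins, which trim mannose from misfolded glycoproteins, did not move together. Edem1 read 10.35, 10.35 and 10.32 on the aged arrays, against 11.00, 11.01 and 10.94 on the young arrays, 1.57-fold lower (adjusted p = 5.08e-07, limma). Edem3 was 1.32-fold lower, but Edem2 was 1.15-fold higher. Edem2 read 8.70, 8.73 and 8.73 on the aged arrays, against 8.57, 8.52 and 8.47 on the young arrays (adjusted p = 0.00287, limma). Os9, the lectin that passes trimmed clients to the ligase, read 10.68, 10.69 and 10.71 on the aged arrays, against 10.62, 10.58 and 10.57 on the young arrays, 1.07-fold higher (adjusted p = 0.0163, limma). Erlec1, the other lectin of this complex and no member of the set, had a difference of 0.42 (adjusted p = 1.96e-05, limma) and was named after its values were seen. The call of Os9 was lost when any aged array or young replicate 2 was left out.

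The derlins, membrane proteins that help move clients out of the ER, gave 2 lower genes and 1 that did not pass. Derl1 read 11.35, 11.32 and 11.32 on the aged arrays, against 11.71, 11.71 and 11.73 on the young arrays, 1.31-fold lower. Derl2 was lower by a log2 difference of -0.42 at values within the negative control range in both ages, so no fold is given. Derl3 read 6.50, 6.55 and 6.65 on the aged arrays, against 6.43, 6.41 and 6.52 on the young arrays, also within that range. Its groups overlapped and its difference was 0.11, with a 95% interval of -0.023 to 0.25 (adjusted p = 0.177, limma), and it passed as higher after centring on the positive controls (difference 0.23).

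A few family relatives from the wider lists, picked after the values were seen, are given as values only, with no test between the genes of a pair. Ero1b had a difference of -1.46, and the hypoxia-induced oxidase Ero1a one of -0.29. Sdf2l1 had a difference of -1.51 and Sdf2 one of -0.21. Atf6 had a difference of -0.86, and Atf6b one of 0.09 that did not pass (adjusted p = 0.25, limma). The order was the reverse for P4hb, at -0.05, and the isomerase Pdia5, at -0.21. Hspa5 and Hsp90b1 each had a difference of -0.67, the mitochondrial Hsp70 gene Hspa9 one of -0.24 and the cytosolic Hsp90 gene Hsp90aa1 one of -0.20.

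The wider secretory pathway was followed in 8 further lists, described by counts and medians. For comparison with every list below, 22.1% of all 20187 genes tested were lower and 18.4% higher. After centring on the positive controls, 2672 of all genes (13.2%) were lower and 6617 higher. Of 26 genes that bring proteins into the ER, 19 were lower and 1 higher, with a median of -0.28, and after centring on the positive controls 16 were lower and 6 higher. Ssr1, a translocon subunit, was 1.37-fold lower, and Srpr, the receptor of the signal recognition particle, had a difference of -0.40. The higher gene was Ssr4, at 1.08-fold, a call lost when any aged array or young replicate 2 was left out. Of 28 genes of N-glycosylation and the calnexin cycle, 13 were lower and 6 higher (median -0.09), and 10 and 9 after centring. Magt1 and Rpn1, subunits of the oligosaccharyltransferase, were 1.79-fold and 1.61-fold lower, while Alg5 had a difference of 0.48 and Krtcap2 one of 0.25.

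Of 29 other folding enzymes of the ER, 12 were lower and 10 higher (median 0.01), and 8 and 12 after centring. Qsox1, a thiol oxidase that acts on secreted and matrix proteins, was 1.79-fold higher, and the prolyl isomerase Fkbp9 1.49-fold higher. The prolyl isomerase Fkbp11 had a difference of -0.59, and Selenok one of -0.41. Of 27 other ERAD genes, 14 were lower and 6 higher (median -0.13), and 8 and 10 after centring. Vcp, the ATPase that pulls clients out of the membrane, and the ligase Marchf6 had differences of -0.46 and -0.49, while Fbxo6 had one of 0.44. Ngly1, which removes glycans from clients, had a difference of 0.60, with its young values within the negative control range.

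Of 15 other ER stress sensors and proteases, 4 were lower and 6 higher (median 0.04), and 2 and 8 after centring. Eif2ak3, the sensor PERK, was 1.29-fold lower. The genes of the NF-Y subunits did not move together: Nfya had a difference of -0.24, Nfyb one of -0.21 and Nfyc one of 0.15. Creb3l1 (OASIS), an ATF6 relative that drives collagen genes in bone, read 11.48, 11.44 and 11.55 on the aged arrays, against 10.78, 10.75 and 10.76 on the young arrays. It was 1.65-fold higher (adjusted p = 6.47e-07, limma), and Bak1 had a difference of 0.38. Of 19 genes of the ATF4 and CHOP branch, 11 were lower and 4 higher (median -0.15), and 8 and 6 after centring: Slc7a11 and Ppp1r15a were 1.81-fold and 1.72-fold lower, and Eif2ak2, a kinase that interferon induces, and Ddit4 were 2.29-fold and 1.61-fold higher.

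Of 28 genes of ER to Golgi transport, 18 were lower and 6 higher (median -0.17), and 11 and 9 after centring. Mia3, which loads collagen into vesicles, had a difference of -0.37, Bet1 one of -0.70 within the negative control range, Yif1a one of 0.50 and Golga2 one of 0.19. Of 27 cytosolic and mitochondrial chaperones, 16 were lower and 4 higher (median -0.19), and 6 and 8 after centring. Hsph1 and Dnaja2 had differences of -0.54 and -0.36, Cryab was 2.06-fold higher, and Hspa1a had a difference of 0.36 within the negative control range. No difference between lists was tested.

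**Figure D4:**
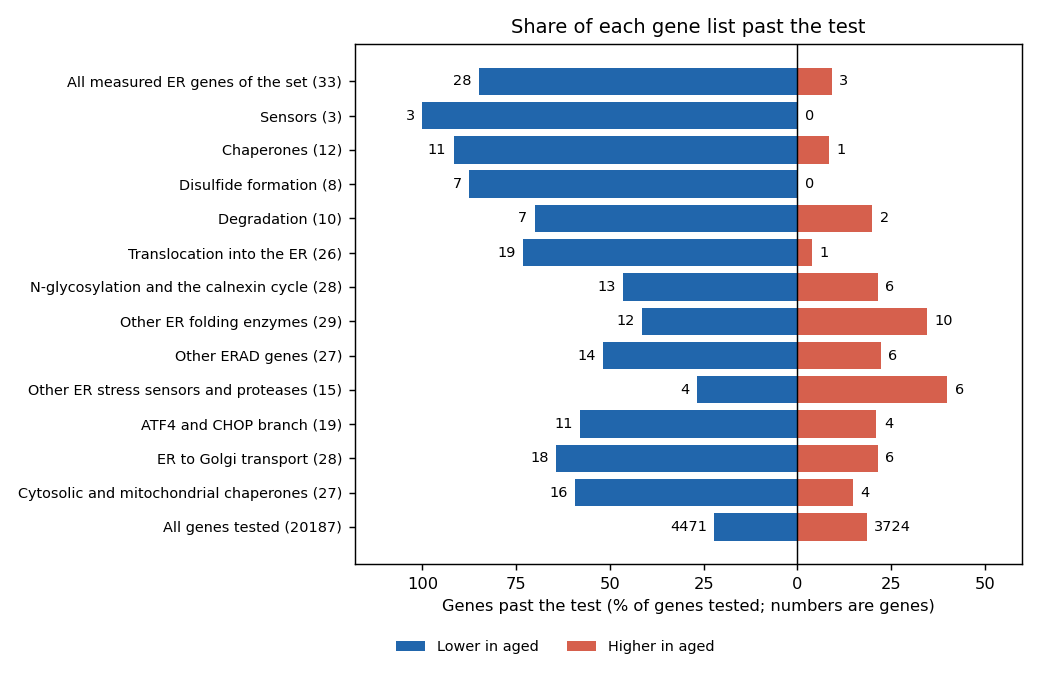
Share of each gene list past the test (percent of genes tested), lower in aged to the left and higher to the right, with numbers of genes beside the bars and numbers tested in brackets. The 33 ER genes had 28 lower and 3 higher, against 4471 and 3724 of all 20187 genes tested.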

How the data were processed

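The authors' deposited table holds log2 expression values, 1 per probe set and array; per the submitters' processing notes MAS5 was used, with no version, while its scaling and summarisation are not given in the sources used here. Values were used as deposited. Of 65956 transcript clusters, 31258 listed 1 gene, with symbols updated through RefSeq GRCm38.p6; probe sets listing several genes were left out. Per gene the probe set with the highest mean was kept, and those averaging under the transcript cluster median of 5.40 were not tested. Groups came from the sample titles. Aged minus young was tested with limma 3.58.1 in R 4.3.3 (lmFit, eBayes with an intensity trend, Benjamini-Hochberg over 20187 genes), after the script was tested on simulated data. Only 3 arrays per age limit the precision. Named genes are all members and, from each wider list, the 2 with the smallest adjusted p in each direction; family relatives and single marker genes named beyond these were chosen after values were seen. The members and lists were chosen with earlier results of these data known. Alternatives were other scalings (quantile, median, positive controls), other filters, the mean of probe sets, eBayes without trend or robust, a test against a difference of 0.3, a replicate block and each array left out.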

Additional observations from a re-analysis of the deposited data

How the results depend on the processing

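Of the 33 ER genes, 28 were lower under every alternative run except the test against a difference of 0.3, which left 22 lower and 0 higher; Xbp1, Canx, Erp44, Txndc5, Dnajc10 and Derl2 did not pass it. The number higher was otherwise 3, 2 without Os9 (no intensity trend, the block, and leaving out any aged array or young replicate 2), or 4 with Derl3. The median of the ER genes was -0.55 by quantile normalization, -0.46 by positive control centring and -0.61 with the lower 70% of probe sets left out, and -0.61 to -0.56 as arrays were left out in turn, lowest without young replicate 3. Positive control centring moved the median of all genes tested by 0.11 and the share of calls that were lower to 28.8%, against 54.6% before it. The median ER gene stood -0.58 from that median both before and after it. This had to be so, since centring shifts all genes of an array by the same amount. Positive control centring gave 2672 lower and 6617 higher over all genes. Over the 8 wider lists it gave 69 and 68, against 107 and 43 before it. The test against 0.3 gave 816 lower and 1169 higher over all genes (1985 against 8195) and 25 and 14 over the wider lists (39 against 150). These follow from the shift and the stricter threshold. Same-numbered arrays correlated at -0.048, 0.068 and 0.015 in their deviations, so the numbers were not taken as pairs; with the replicate block 28 ER genes were lower and 2 higher, 4204 and 3524 of all genes, and 105 and 38 of the wider lists. Ssr4 was lost under the block and when any aged array or young replicate 2 was left out. Values near the negative controls (Ero1b, Derl2, Derl3) bound no fold.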
